A study of Arabidopsis thaliana with 16 samples.

Results

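Leucine-rich repeat receptor-like kinases were taken from arrays of Arabidopsis leaves by title. Members were every probe set whose deposited gene title holds both "leucine-rich repeat" and "kinase", in upper or lower case. Kinases of this class that carry other titles were left out. The rule took 100 of 22810 probe sets, which name 105 of the 23616 genes on the array. Of these, 48 probe sets, naming 51 genes, passed a filter on low signals (above 75 on both arrays of at least 1 of 8 groups) and were tested with the 14286 probe sets that passed it in all. That share was 48% of the members and 62.8% of all probe sets that are not controls.

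Rosette leaves of Col-0 wild type (WT) and of a transgenic line (FG) had been hybridised to 16 ATH1 arrays, in 8 groups of 2 arrays. FG plants carried pHSP:FT and pHSP:GFP together, brought together by crossing, in which the heat-inducible promoter of HSP17.4 drives FT, a promoter of flowering, and GFP. Plants grew under the long day (LD, 16 h light and 8 h dark) or the short day (SD, 8 h light and 16 h dark), in space or on the ground. Plants under SD, of both genotypes and in both environments, were also heated early in the flight, and plants under LD were not, so daylength and heating cannot be told apart. All plants had been raised in root modules in a greenhouse for 20 days, then flew or stood for about 12 days and 15 h at about 22 °C, and 4 leaves from a pair of plants were taken per treatment, in space after the return to Earth. There was 1 flight unit and 1 ground unit, so environment and unit cannot be told apart, and with 2 arrays per group the number of arrays limits the precision of every value.

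Receptor-like kinases of this class sit in the plasma membrane, with a leucine-rich repeat domain outside the cell that binds a peptide, a steroid or another protein, and a kinase domain inside. On binding its ligand, a receptor typically pairs with a short co-receptor such as BAK1, and both kinases phosphorylate each other and cytoplasmic kinases such as BIK1. In leaves the family is best known for sensing microbes and damage, for brassinosteroid signalling, for organ shedding and for the control of stomata. Signals below are MAS 5.0 signals, in arbitrary units, and each probe set is compared only with itself. Log2 fold changes are space minus ground unless another contrast is named, with signals under 75 raised to 75. A member was called changed if it moved at least 2-fold with a p under 0.05 after adjustment by Benjamini-Hochberg over all probe sets tested.

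FT checked the labels only in part. It was present on all 4 FG arrays from the ground, at signals of 178 to 812, and absent on all 8 WT arrays (4.25 to 61.2). On the FG arrays from space it was called present under SD, at 73.5 and 206, but marginal and absent under LD, at 75.9 and 8.3, so FT does not check the FG label of the LD arrays from space. The 4 leaf mesophyll markers were present on all 16 arrays, and the root, trichome and pollen markers on none. Both phloem markers and 2 of 4 guard cell markers were also present on all 16. Of the flower organ markers, PI was present on 15 arrays, AG on 1 and AP3 and SEP3 on none. Of the senescing leaf markers, SAG13 was present on 16 and SAG12 on 2. The summed mesophyll signal ran from 11033 to 75047 over the ground arrays and from 52504 to 88492 over the space arrays. Arrays from space differed from those of the ground as a whole: they had more probe sets called present (13339 against 12237 on average, exact permutation test, two-sided, p = 3.11e-04, 8 against 8 arrays), dimmer hybridisation spike-ins (11.2 against 11.7 log2, exact permutation p = 1.55e-04) and a smaller 3' to 5' difference of GAPDH (0.648 against 1.43 log2, exact permutation p = 4.66e-04). For actin that difference, at 3.3 in space and 3.48 on the ground, did not pass the test (exact permutation p = 0.165). The part of these differences in the values below was not tested. Over the 48 members, the SD between both arrays of a group was 0.54 to 0.67 log2 units in the 4 ground groups and 0.31 to 0.37 in the 4 space groups.

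Detection divided the members. Of the 48 that passed the filter, 24 were called present on all 16 arrays and 11 on fewer than 8. Of the 52 that did not pass, 35 were present on no array. Among these were PXY, the receptor that maintains the vascular cambium, and the pollen receptor kinases PRK3, PRK4 and PRK5. PEPR2, a receptor of Pep danger peptides, was present on 8 arrays, with a highest signal of 206, and failed the filter. LRX1, a leucine-rich repeat extensin of the root hair wall that the title rule takes although it is not a receptor kinase, failed it too.

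In WT under LD, 7 members were lower in space and 2 were higher. The members that fell were AT1G51850, AT1G51790, IOS1, AT4G39270, AT5G25930, KIN7 and HPCA1, and those that rose were AT1G29720 and AT2G33170. The background was 5.79% lower and 10.9% higher among all probe sets tested, against 14.6% and 4.17% of the members. The median log2 fold change was -0.08 over the members and 0.09 over all probe sets, with 24 members above 0 and 24 below. Values ran from -3.58 (AT1G51850) to 1.68 (AT3G28040, adjusted p = 0.148), with SEs of 0.18 to 0.90.

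Among FG plants under LD, 3 members were lower in space (AT4G39270, KIN7 and AT1G53430) and 2 were higher (AT2G33170 and AT5G59670), against a background of 4.49% lower and 9.46% higher. The members' median was -0.12 and that of all probe sets 0.07. AT4G39270, KIN7 and AT2G33170 were called in both genotypes. No member passed the test of a difference between the genotypes in their response under LD, where 0.035% of all probe sets did. For that contrast 6 members had an unadjusted p under 0.05 (797 of all 14286 probe sets), and the smallest adjusted p was 0.231, for HPCA1. Calls made in WT alone are therefore not shown to be particular to WT.

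**Figure D1:**
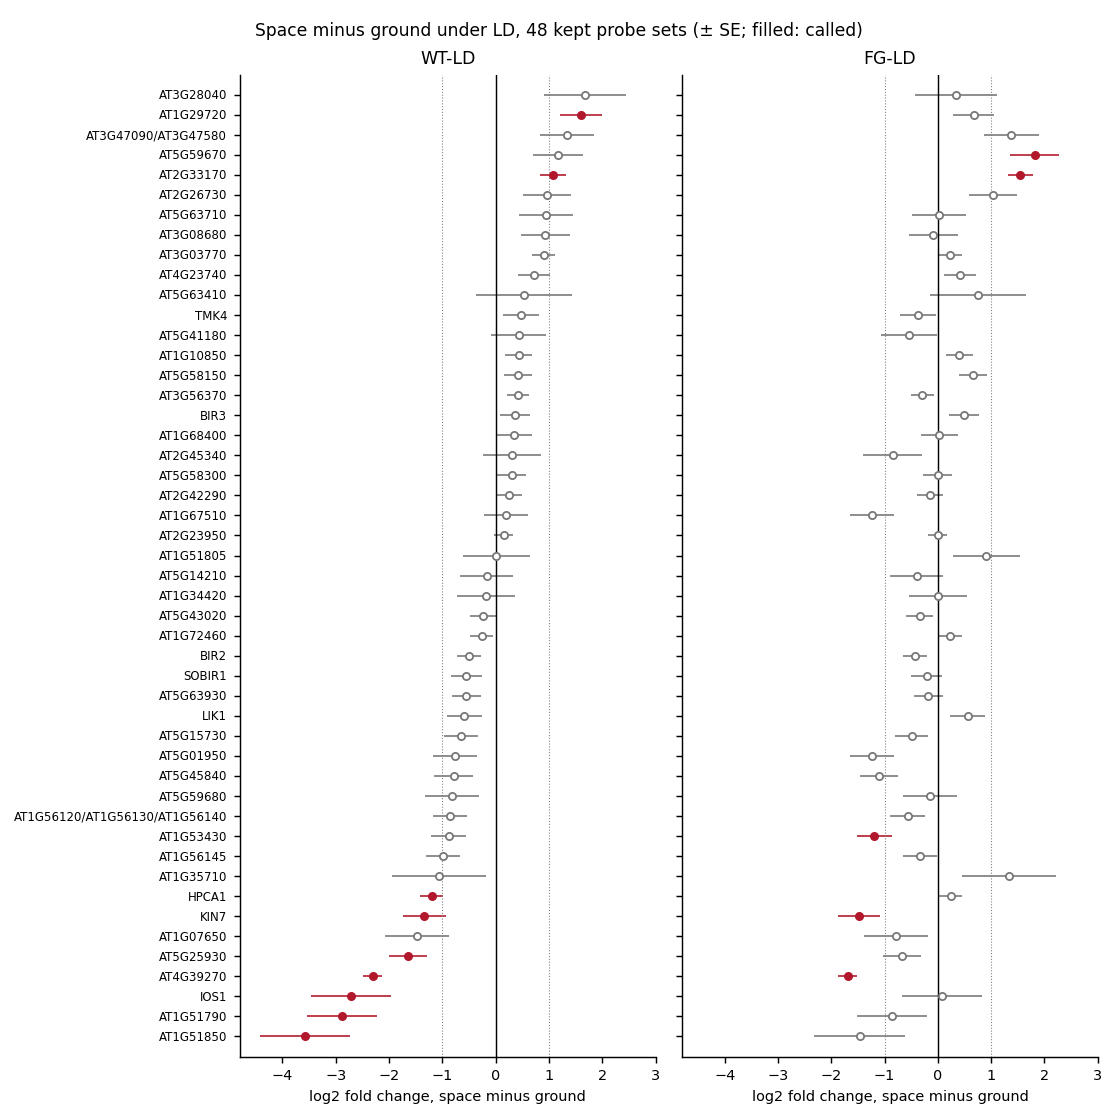
Log2 fold change, space minus ground, of the 48 kept probe sets under LD in WT (left) and FG (right), with SE bars, in the order of the WT values; filled points were called and dotted lines mark 2-fold. AT1G51850, AT1G51790 and IOS1 lie lowest in WT, and AT4G39270 is low in both genotypes.

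AT4G39270, a kinase with no symbol in the annotation used here, had the smallest adjusted p of the members tested in both genotypes under LD. WT arrays under LD read 1746 and 1841 on the ground and 371 and 352 in space. Its FG arrays under LD read 1457 and 1737 on the ground and 494 and 494 in space. Arrays of both environments were far apart in both genotypes, and the fold changes were -2.31 ± 0.18 (adjusted p = 9.43e-05, 4.97-fold lower) in WT and -1.69 ± 0.18 (adjusted p = 4.76e-04, 3.22-fold lower) in FG. Under SD the signals in space stayed near those of the ground. They were 1763 and 1573 on the ground against 1302 and 1501 in space in WT, and 1660 and 1739 against 1545 and 1433 in FG, with fold changes of -0.25 (adjusted p = 0.484) and -0.19 (adjusted p = 0.685). The difference between the responses under SD and LD was itself past the threshold, at 2.06 ± 0.26 in WT (adjusted p = 0.00818) and 1.50 ± 0.26 in FG (adjusted p = 0.0285), where the background was 0.672% and 0.84% of all probe sets. In space alone AT4G39270 was higher under SD than under LD, by 1.95 ± 0.18 in WT (adjusted p = 4.57e-04) and 1.59 ± 0.18 in FG (adjusted p = 0.00111). Each LD call and both SD against LD calls in space held with any 1 of the 16 arrays left out. The interaction in WT was lost without the second WT array under SD in space (adjusted p = 0.0655), and that in FG was lost in 8 of the 16 cases (adjusted p up to 0.118). The study placed this gene on its own list of phosphorylation genes tied to daylength, which it chose on these same samples, so the list is not independent evidence.

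KIN7 (AT3G02880), a kinase that acts in guard cells during stomatal closure, was lower in space on every array of every group. WT read 4190 and 2899 on the ground and 1665 and 1139 in space under LD, and 4919 and 3814 against 1711 and 1847 under SD. FG read 3091 and 4330 against 1276 and 1347 under LD, and 5484 and 2135 against 1269 and 1168 under SD. No ground array was as low as any space array across the series. Under LD the fold change was -1.34 in WT (adjusted p = 0.0391) and -1.48 in its FG counterpart (adjusted p = 0.0315). Under SD the values were similar, -1.28 for WT (adjusted p = 0.116) and -1.49 for FG (adjusted p = 0.110), all with an SE of 0.40, and did not pass. Averaged over genotypes, KIN7 was called under both daylengths, at -1.41 ± 0.28 (adjusted p = 0.00358) under LD and -1.39 ± 0.28 (adjusted p = 0.0149) under SD. The call within WT under LD was lost in 10 of 16 cases when 1 array was left out (adjusted p up to 0.225) and that within FG in 5 (up to 0.175). Scaling to the spike-ins took both, and left the averages under 2-fold, at -0.86 under LD and -0.83 under SD.

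AT2G33170, a member whose ligand is not annotated here, rose under LD in both genotypes. Under LD it read 269 and 316 on the ground and 648 and 585 in space in WT, and 267 and 254 against 750 and 778 in FG. The fold changes were 1.08 ± 0.24 (adjusted p = 0.0121) and 1.55 ± 0.24 (adjusted p = 0.00293), with no overlap of arrays. Under SD the signals were 426 and 311 against 452 and 546 in WT, and 227 and 251 against 313 and 450 in FG, at 0.45 (adjusted p = 0.332) and 0.65 (adjusted p = 0.219). In space, FG plants under SD had less AT2G33170 than those under LD (-1.03 ± 0.24, adjusted p = 0.0381), a call lost in 7 of 16 cases with 1 array left out (adjusted p up to 0.249). The rise in FG under LD held with any 1 array left out. That in WT was lost without the first ground array or either space array (adjusted p up to 0.0666), and after median scaling or quantile normalization.

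**Figure D2:**
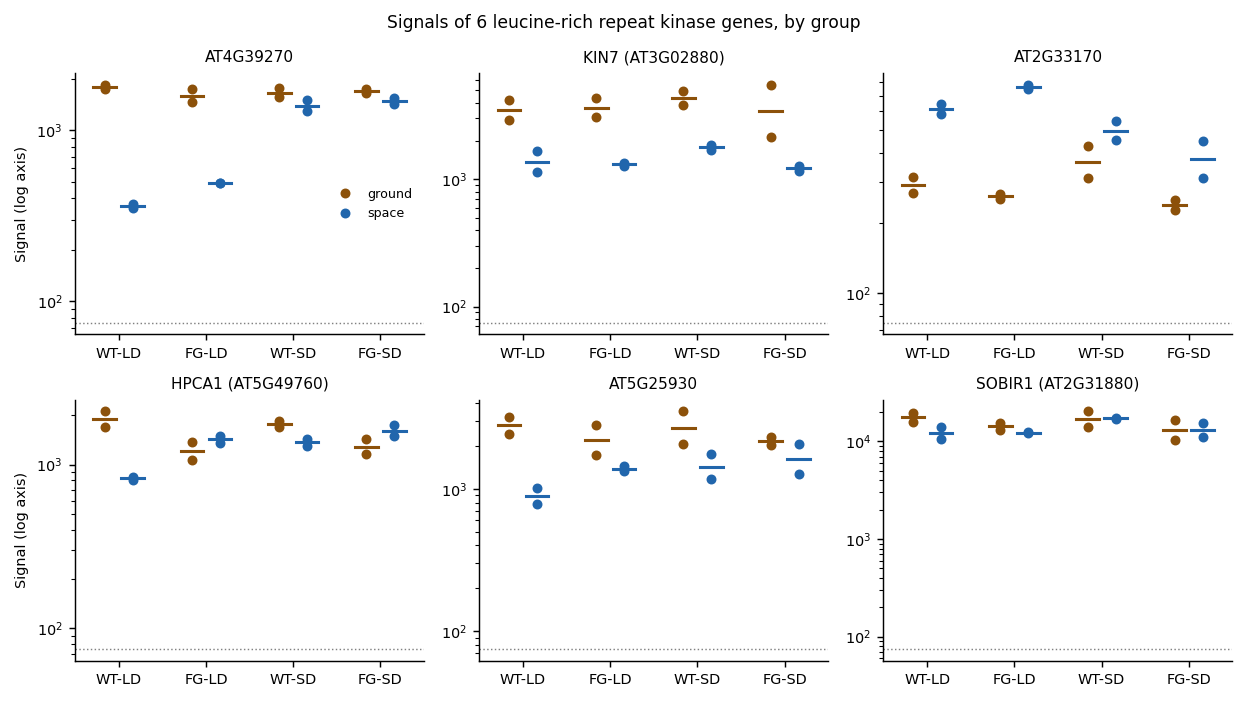
Signals on a log axis of 6 members in the 8 groups; each point is 1 array (brown, ground; blue, space), lines are means of log2 signals and the dotted line is the floor of 75. KIN7 was lower in space in all 4 pairs of groups, AT4G39270 was called under LD and not under SD, and SOBIR1 was called in none.

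A stretch of chromosome 1 holds several kinases of this class with an extracellular malectin-like part. AT1G51790, IOS1 (AT1G51800) and AT1G51805 are direct neighbours in the RefSeq annotation, and AT1G51830 and AT1G51850 follow further along. AT1G51830 was present on no array, with a highest signal of 43.1.

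IOS1, which helps immune receptors and BAK1 form complexes and is named after the resistance to oomycetes of its mutants, read 1595 and 2642 on the ground and 403 and 246 in space in WT under LD. FG under LD read 1150 and 533 against 1108 and 621. The WT arrays did not overlap and the FG arrays did, and the fold changes were -2.71 ± 0.75 (adjusted p = 0.0300) and 0.08 (adjusted p = 0.966). Their difference of 2.79 ± 1.06 did not pass the test (adjusted p = 0.757). Under SD, WT read 757 and 1113 against 105 and 545 (-1.94, adjusted p = 0.187) and FG 685 and 278 against 368 and 194 (-0.71, adjusted p = 0.720). The call in WT under LD was lost whenever any 1 of its own 4 arrays was left out (adjusted p up to 0.177).

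AT1G51790 read 918 and 2530 on the ground and 217 and 198 in space in WT under LD, a fold change of -2.88 ± 0.66 (adjusted p = 0.0139). The FG arrays under LD read 1053 and 575 against 481 and 380, at -0.86 (adjusted p = 0.409). The space arrays were below the ground arrays in both, and also in WT under SD, where they read 573 and 1633 against 215 and 325 (-1.87, adjusted p = 0.156). In FG under SD they overlapped (426 and 194 against 347 and 138). The call in WT under LD was lost without either space array, and without the second ground array, where the value was -2.15 (adjusted p = 0.101).

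AT1G51850 had the lowest space minus ground fold change of the members tested. Like AT4G39270, it is on the study's list of daylength phosphorylation genes, which was chosen on these same samples and is not independent evidence. WT under LD read 334 and 2405 on the ground and 7.48 and 3.85 in space, where neither array was called present above the floor, so the change was -3.58 ± 0.85 or lower (adjusted p = 0.0167, at least 12.0-fold). Without the second ground array the change was -2.16 (adjusted p = 0.108), and the call was also lost without either space array, while without the first ground array it held (adjusted p = 0.0049). Signals in FG under LD were 659 and 231 against 266 and 48.1, which overlap, at -1.47 (adjusted p = 0.271). Under SD they were 307 and 269 against 1.61 and 55.7 in WT and near the floor on both sides in FG (74.1 and 71.7 against 169 and 66.7).

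AT1G51805 behaved otherwise. Under LD its arrays overlapped in WT (1160 and 917 on the ground, 865 and 1247 in space, 0.01) and were higher in space in FG (735 and 598 against 1135 and 1364, 0.91, adjusted p = 0.360). Under SD they were lower in space in both genotypes, at 838 and 1829 against 246 and 331 in WT (-2.12, adjusted p = 0.104) and 1188 and 227 against 219 and 153 in FG (-1.51, adjusted p = 0.280). Averaged over genotypes the fall under SD was called, at -1.81 ± 0.45 (adjusted p = 0.0314), where the background was 2.08% lower. In space, FG plants under SD had less AT1G51805 than those under LD (-2.77 ± 0.63, adjusted p = 0.0348). Leaving out any 1 of the 8 space arrays took that call (adjusted p up to 0.215), and the averaged fall was lost in 9 of 16 cases (adjusted p up to 0.122).

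**Figure D3:**
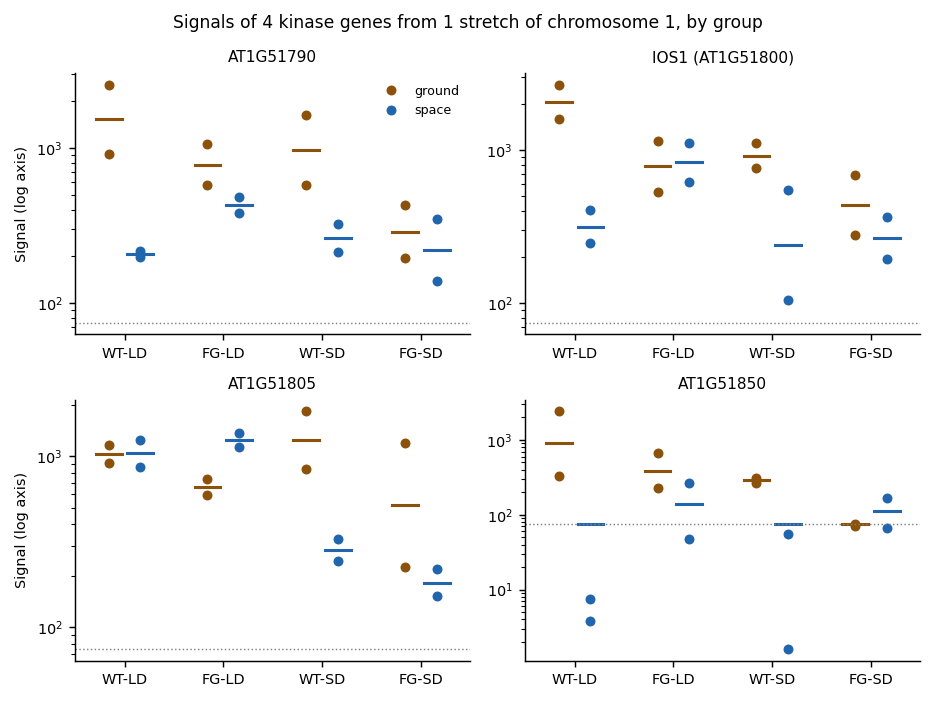
Signals on a log axis of AT1G51790, IOS1, AT1G51805 and AT1G51850 in the 8 groups, each point 1 array (brown, ground; blue, space), with lines at means of log2 signals after raising values to the floor of 75 (dotted). In WT under LD the space arrays lie below the ground arrays for AT1G51790, IOS1 and AT1G51850 and the arrays overlap for AT1G51805.

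Of the other members that fell in WT under LD, HPCA1 (AT5G49760) senses hydrogen peroxide at the cell surface. The gene read 2112 and 1696 on the ground and 803 and 845 in space, without overlap (-1.20 ± 0.22, adjusted p = 0.00495, 2.30-fold lower), and this call held with any 1 array left out. FG arrays under LD read 1368 and 1068 against 1497 and 1357 (0.24, adjusted p = 0.493), and those of the SD groups lay between 1153 and 1842. The difference between genotypes under LD was 1.44 ± 0.31, with an adjusted p of 0.231. Both neighbours of HPCA1 in its run, AT5G49770 and AT5G49780, failed the filter.

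AT5G25930 read 3202 and 2424 on the ground and 1010 and 784 in space in WT under LD (-1.65 ± 0.36, adjusted p = 0.0117, 3.13-fold lower). For FG under LD the space arrays were also below those of the ground, at 2803 and 1728 against 1447 and 1328 (-0.67, adjusted p = 0.238). Under SD it was at -0.92 in WT and -0.42 in FG, neither called. The WT call was lost without the first ground array or the second space array (adjusted p up to 0.092).

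AT1G53430, a kinase of a small group with an extracellular malectin domain, was called in FG under LD, from 1959 and 1021 on the ground to 755 and 509 in space (-1.19 ± 0.33, adjusted p = 0.0333). For WT under LD it was at 767 and 981 against 434 and 509, also without overlap (-0.88, adjusted p = 0.0806). Without the first FG ground array the value was -0.72. The call of AT1G53430 in FG was lost in 5 of 16 cases with 1 array left out. Its relative AT1G56145, which lies beside AT1G56140, was at -0.99 (adjusted p = 0.0553) in WT under LD and 0.99 (adjusted p = 0.132) in WT under SD. For AT1G56145 the difference between daylengths was called only with genotypes averaged (1.36 ± 0.32, adjusted p = 0.0399, against a background of 4.36%), and that call was lost in 13 of 16 cases with 1 array left out.

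Both further rises were of dim probe sets. Each passed the filter only through groups from space, where it was high, so the filter itself favoured members that rise in space. AT1G29720 in WT under LD read 50.6 and 86.1 on the ground, where no array was called present above the floor, and 194 and 305 in space, a change of at least 1.60 ± 0.39 (adjusted p = 0.0184, at least 3.03-fold). Its FG ground arrays under LD were 173 and 15 and the space arrays 142 and 230 (0.67, adjusted p = 0.275). AT5G59670 in FG under LD read 37.4 and 3.56 on the ground and 151 and 465 in space (at least 1.82 ± 0.46, adjusted p = 0.0253, at least 3.54-fold), and in WT 3.88 and 1.74 against 194 and 147 (at least 1.17, adjusted p = 0.0993). The FG call of AT5G59670 was lost without either FG ground array or the second space array, without which it was 1.01 (adjusted p = 0.173), and AT1G29720 lost its call without either WT ground array or the second space array (adjusted p up to 0.145).

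Several members present on all arrays were not called. SOBIR1, the adaptor kinase of receptor-like proteins in immunity, read 10301 to 20289 over the 16 arrays, and its fold changes in the 4 comparisons lay between -0.55 (WT under LD, adjusted p = 0.211) and 0.04. AT1G35710 read 13738 and 7493 on the ground and 6018 and 3962 in space in WT under LD, but 4199 and 1328 against 6050 and 5849 in FG, at -1.06 and 1.33, each ± 0.88. The difference between these responses was 2.39 ± 1.24 and not called (adjusted p = 0.961). BIR3 (AT1G27190), which holds BAK1 back from its receptors, was at 0.37 in WT and 0.49 in FG under LD, each ± 0.28. TMK4 (AT3G23750), a kinase of auxin signalling, was at 0.48 in WT and -0.38 in FG under LD, each ± 0.34. AT5G45840, on the same list of the study as AT4G39270, was present on 15 arrays and lower in space on all arrays under LD. It read 158 and 107 against 73.4 and 55.3 in WT, and 127 and 206 against 55.7 and 47.2 in FG. Its space arrays under LD were all below the floor of 75, so both changes are bounds. Neither passed the test (adjusted p = 0.148 and 0.0622).

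Under SD no member was called in either genotype. The background was 1.25% higher and 0.616% lower in WT, and 0.609% and 0.308% in FG. An unadjusted p under 0.05 was reached by 9 members in WT and 8 in FG (2817 and 2233 of all 14286 probe sets), and the smallest adjusted p was 0.104 in both. The medians were -0.22 in WT, against 0.11 over all probe sets, and 0.02 in FG, against 0.05. By limma with genotypes averaged, KIN7 and AT1G51805 were lower under SD (background 2.08%), and no member was higher (background 3.43%). Under LD the average called 4 members higher and 6 lower (background 13.5% and 7.24%), the fourth rise being a probe set shared by AT3G47090 and AT3G47580 (1.36), whose signal the array cannot divide.

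On the ground, daylength moved no member past the test. In WT 0.021% of all probe sets were called between SD and LD and in FG 0%, and 3 and 4 members had an unadjusted p under 0.05 (919 and 1030 of all 14286 probe sets), with smallest adjusted p of 0.705 and 0.595. In space, AT4G39270 was the member called in WT (background 0.588% higher and 2.19% lower). In FG, AT4G39270 was higher under SD, while AT1G51805, AT2G33170 and AT5G58150 were lower (background 1.06% and 3.09%). In the FG plants in space, AT5G58150 read 424 and 442 under LD, and 188 and 136 with the short day, with no present call under SD, a difference of -1.43 ± 0.27 or lower (adjusted p = 0.0148). The call of AT5G58150 was lost in 3 of 16 cases with 1 array left out. No member was called between FG and WT in any of the 4 settings of daylength and environment, where 0.028% (LD, ground), 0.014% (SD, ground), 0.007% (LD, space) and 0.014% (SD, space) of all probe sets were called. At an unadjusted p under 0.05 there were 3 of 48 members under LD on the ground (1164 of all 14286 probe sets), 9 under SD on the ground (1428), 3 under LD in space (697) and 1 under SD in space (391).

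The scaling of the arrays moved the members as a whole. With each array set to its median, the members' median in WT under LD was -0.33 and that of all probe sets -0.19, and 1 member was higher and 11 lower. With each array set to its hybridisation spike-ins, which were dimmer in space, the medians were 0.46 and 0.66, and 13 members were higher and 3 lower. Among all probe sets the split was 6.69% higher and 10.1% lower after median scaling, 28.1% and 2.35% after spike-in scaling and 9.28% and 7.23% after quantile normalization. AT1G51790, AT1G51850 and AT4G39270 remained lower under all of these, while AT5G25930, HPCA1, IOS1 and KIN7 lost their calls with spike-in scaling alone. In FG under LD, AT4G39270 remained lower and AT2G33170 and AT5G59670 remained higher under all of them, and KIN7 and AT1G53430 lost their calls with spike-in scaling. Spike-in scaling changed the sign of 6 members in WT and 9 in FG under LD, and of 16 and 9 under SD, none of them called as deposited. SOBIR1 in WT under LD, for example, went from -0.55 to 0.09. The daylength difference of AT4G39270 averaged over genotypes was 1.78 to 1.92 under every scaling.

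**Figure D4:**
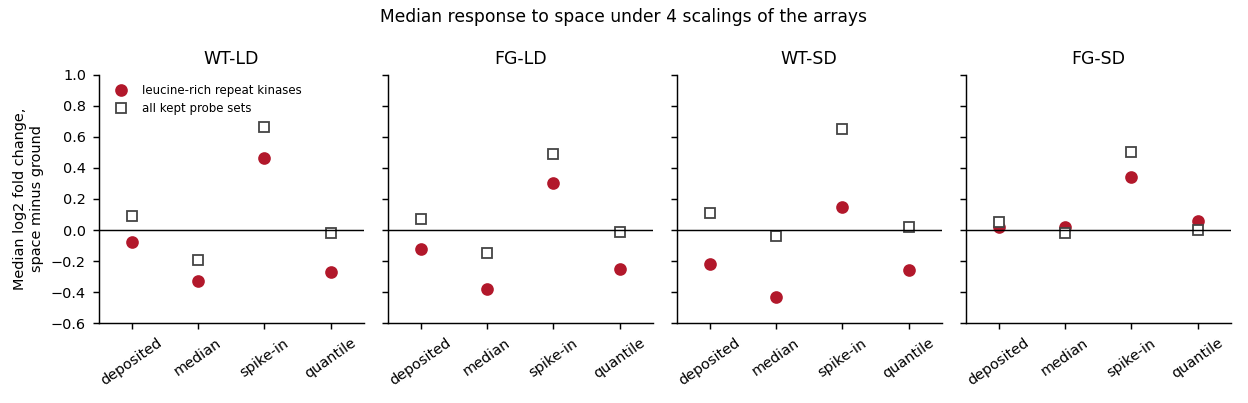
Median log2 fold change, space minus ground, of the leucine-rich repeat kinases (red circles) and of all kept probe sets (open squares) under 4 scalings, in each genotype and daylength. In WT under LD, FG under LD and WT under SD the members' median lies below that of all probe sets under each scaling, and spike-in scaling puts both above 0.

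The members were set beside other kinases by title. Of 850 other kinase probe sets, 6.59% were higher and 8.47% lower in WT under LD, with a median of -0.09. Cysteine-rich receptor-like kinases, a neighbouring class of defence kinases, had 1 of 30 higher and 9 lower, with a median of -0.96. The cysteine-rich kinases of FG under LD had 3 higher and 4 lower, with a median of -0.34. No test between the classes was run.

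Ligand precursors of leucine-rich repeat receptors were listed from general knowledge, with earlier results of these data known. Of 18 genes 13 were tested, and in WT under LD 3 fell and none rose, against 5.79% lower and 10.9% higher of all probe sets. In that comparison 12 of the 13 and 6381 of all 14286 were below 0, with medians of -1.69 and 0.09. PROPEP2 and PROPEP3 encode precursors of the Pep danger peptides, and IDA encodes the peptide that sets off organ shedding. PROPEP3 read 2393 and 1993 on the ground and 195 and 283 in space in WT under LD (-3.22 ± 0.54, adjusted p = 0.00355), a call that held with any 1 array left out. PROPEP2 read 1201 and 2490 against 33.7 and 27.1 (-4.53 ± 0.89 or lower, adjusted p = 0.00707), and IDA 481 and 343 against 152 and 57.4 (-1.93 ± 0.45, adjusted p = 0.0156). The call of PROPEP2 was lost without the second ground or the second space array, and that of IDA without the first ground or the second space array. For FG under LD none was called (background 4.49% lower) and 12 of 13 were below 0 (6579 of all 14286), with a median of -1.15 against 0.07 and 5 at an unadjusted p under 0.05 (4468 of all).

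Under SD the precursors had medians of -1.79 in WT (0.11 over all), with no call (background 0.616% lower) and 6 at an unadjusted p under 0.05 (2817 of all 14286), and -1.73 in FG (0.05 over all), with 2 lower (background 0.308%). In FG, PROPEP3 fell from 2640 and 4070 to 556 and 279 (-3.06, adjusted p = 0.0318) and PREPIP2, a precursor of an immune peptide, from 1174 and 592 to 45.9 and 26.9 (-3.47 ± 0.57 or lower, adjusted p = 0.0255). These calls were lost in 7 and 5 of 16 cases with 1 array left out. The precursors' median stayed below 0 under every scaling in all 4 comparisons, at -0.68 or lower.

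**Figure D5:**
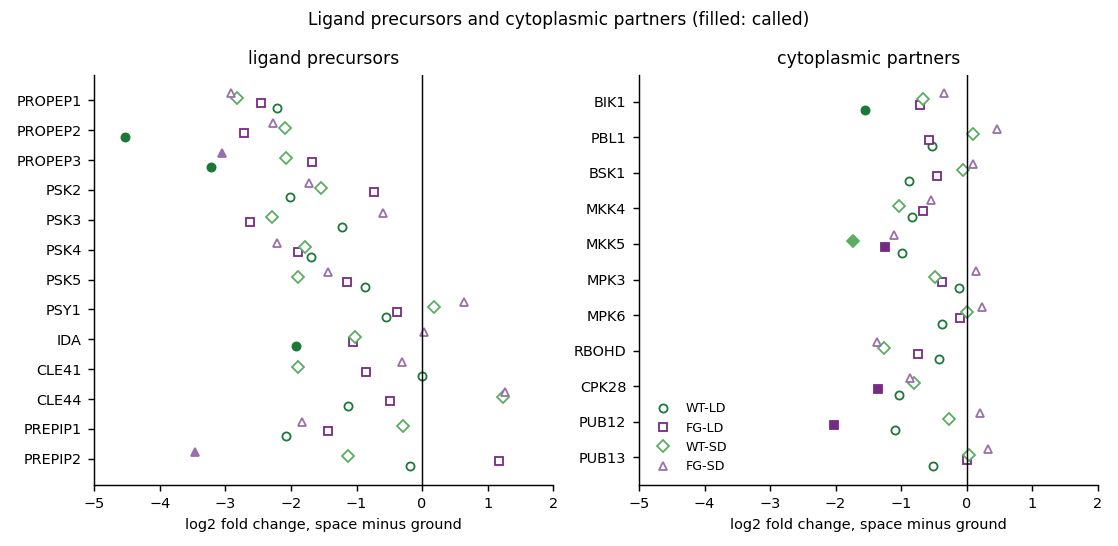
Log2 fold change, space minus ground, of the 13 kept ligand precursors (left) and the 11 cytoplasmic partners (right) in the 4 comparisons; filled symbols were called. PROPEP2 and PROPEP3 lie lowest among the precursors in WT under LD.

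Receptors and co-receptors of known function were listed in the same way. Of 57 listed, 45 were tested, 8 of them members, and in WT under LD 3 rose and 7 fell, against 10.9% higher and 5.79% lower of all probe sets. Of those that are not members, FRK1, a kinase induced by flagellin, read 1957 and 7316 on the ground and 102 and 141 in space (-4.98 ± 1.03, adjusted p = 0.00892), and was at 0.60 in FG (adjusted p = 0.744). PSKR1, the phytosulfokine receptor, fell in WT under LD from 630 and 708 to 228 and 224 (-1.56 ± 0.31, adjusted p = 0.00698) and in WT under SD from 723 and 816 to 251 and 297 (-1.49, adjusted p = 0.0404), the latter lost in 8 of 16 cases with 1 array left out. TMK1, of auxin signalling, fell under LD in WT (-1.60 ± 0.44, adjusted p = 0.0282) and in FG (-2.75, adjusted p = 0.00344), there from 1809 and 3249 to 289 and 450.

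HAESA, the receptor of IDA, fell in WT under LD (-1.57 ± 0.40, adjusted p = 0.0220) and was at 0.81 in FG (adjusted p = 0.196). PEPR1, the main Pep receptor, fell in FG under LD, from 2103 and 1750 to 419 and 349 (-2.33 ± 0.60, adjusted p = 0.0270). In WT under LD, PEPR1 was at -0.40 (adjusted p = 0.683). None of the 45 listed receptors passed the test of a genotype difference in the response under LD, where 0.035% of all probe sets did. At an unadjusted p under 0.05 there were 7 (797 of all 14286 probe sets). No ligand precursor or cytoplasmic partner passed it either. Calls under LD in 1 genotype alone, such as those of FRK1, HAESA and PEPR1, are therefore not shown to be particular to it. The rises in WT under LD were NIK3 (1.76 ± 0.33, adjusted p = 0.00608), SERK2, a co-receptor of the BAK1 family (1.30 ± 0.31, adjusted p = 0.0166), and BAM1, a receptor of CLE peptides (1.22 ± 0.37, adjusted p = 0.0436). BAK1 itself was at -0.58 to -0.33 in the 4 comparisons, each ± 0.29, and not called. Among the calls on listed receptors that the title rule does not take, only that of TMK1 in FG held with any 1 array left out. The list's median in WT under LD was -0.15 as deposited, against 0.09 over all probe sets. After spike-in scaling it was 0.37, against 0.66. With that scaling 8 were higher and 1 lower, where the background was 28.1% higher and 2.35% lower.

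Of the 11 cytoplasmic partners of the receptors, all were tested. In WT under LD 1 fell (background 5.79% lower) and 11 were below 0 (6381 of all 14286), with a median of -0.84 against 0.09 over all probe sets. BIK1, the kinase that immune receptors phosphorylate, fell from 4210 and 3189 to 1361 and 1158 (-1.55 ± 0.24, adjusted p = 0.0023), a call that held with any 1 array left out. For FG under LD 3 fell (background 4.49%) and 10 were below 0 (6579 of all 14286): the MAP kinase kinase MKK5 (-1.24 ± 0.26, adjusted p = 0.0113), the calcium-dependent kinase CPK28 (-1.35 ± 0.39, adjusted p = 0.0411) and the ubiquitin ligase PUB12 (-2.03 ± 0.53, adjusted p = 0.0279). Their calls were lost in 2, 10 and 4 of 16 cases with 1 array left out. Under SD, MKK5 alone was called in WT, from 1542 and 1335 to 423 and 445 (-1.73, adjusted p = 0.0166, background 0.616% lower), a call lost in 3 of 16 cases with 1 array left out (adjusted p up to 0.192). None was called in FG, where the median was 0.10. After spike-in scaling the partners' medians were -0.20 in WT and -0.21 in FG under LD, against 0.66 and 0.49 over all probe sets. Neither had a call, where 28.1% and 19.6% of all probe sets were higher and 2.35% and 1.94% lower. In WT under SD the median was 0.12, against 0.65.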

How the data were processed

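Leaf RNA of 16 samples had been hybridised to ATH1 arrays, 1 array each. The deposited log2 signals were made by the authors with MAS 5.0, each array scaled to a trimmed mean of 500, and detection calls stand beside them. The same values stand in the table that accompanies the series. The floor of 75 named in the methods is not in the deposited values and was applied here. Genome build and R package version are not given in the sources used here, so no coordinates are printed.

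Of 22746 probe sets that are not controls, 14286 had both arrays of at least 1 group above 75. A model with 1 mean per group (8 groups, 16 arrays, 8 residual and 2.75 prior degrees of freedom) was fitted to all of them with limma 3.58.1 in R 4.3.3, and p-values were adjusted by Benjamini-Hochberg over all of them. Summaries were made in Python 3.11.15. The fit was also run on simulated data with normal noise and 1 spread per probe set in all groups. Those simulations had no floor and no difference in spread between ground and space, so they do not check the fit for either. A group without any present call above 75 gives a bound in place of a change. The study describes the arrays of a group as biological replicates. Spike-in scaling used the 18 hybridisation control probe sets.

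The members and gene lists were chosen with earlier results of these data known. Named members are those called in a space against ground comparison without overlap of arrays (at most 10 per direction), those called in another contrast, those of the AT1G51790 stretch, the 3 with the highest mean signal, and those on the study's daylength phosphorylation list. Named other genes are those of the 3 pathway lists that were called in a space against ground comparison. BIR3, TMK4, BAK1, AT1G56145 and the members at the ends of ranges or below the filter were added after their values were seen. Of the members' 105 genes all matched the RefSeq gene table, which names 11 by a symbol, and the names KIN7, HPCA1, BIR3 and TMK4 were paired with their loci from general knowledge. Alternatives were median, spike-in and quantile scaling, log2(signal + 32) in place of the floor, no filter, the compared groups alone, array weights, a replicate block, the methods' t-test and each array left out.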

Additional observations from a re-analysis of the deposited data

Results flagged for a closer look

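A difference between the responses under SD and LD, tested as an interaction, marked AT4G39270 in both genotypes. Space minus ground under SD exceeded the same difference under LD by 2.06 ± 0.26 in WT (adjusted p = 0.00818) and 1.50 ± 0.26 in FG (adjusted p = 0.0285). Signals in space under LD were 352 to 494 over the 4 arrays of both genotypes, and all other arrays read 1302 or more. SD plants were also heated, and daylength and heating cannot be told apart.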

How the results depend on the processing

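No called change of a named member turned its direction under the settings run. The members' median did with spike-in scaling, in WT under LD (-0.08 to 0.46), FG under LD (-0.12 to 0.30) and WT under SD (-0.22 to 0.15). Counts of called members moved over 1.5 times, or from 0, as follows, and the causes were not tested beyond what a setting's construction gives. Outside the scalings of the space against ground comparisons, the share of all probe sets called under a setting is not given here. The same holds for the fits with an array left out. Those counts therefore do not show whether the members moved apart from the array as a whole. In WT under LD, the 2 higher became 1 with median scaling, 13 with spike-in scaling, 1 with quantile normalization and 4 with log2(signal + 32). The same 2 became 0 with the compared groups alone (fewer arrays), 1 by the t-test and 0 by it after Benjamini-Hochberg. The 7 lower became 11 with median scaling, 3 with spike-in scaling, 4 without the filter, 1 with the compared groups alone, 3 by the t-test and 0 after Benjamini-Hochberg. In FG under LD, the 2 higher became 4 with spike-in scaling, 1 without the filter and 0 by the t-test after Benjamini-Hochberg, and the 3 lower became 1 with spike-in scaling, 1 without the filter, 1 with the compared groups alone, 6 with array weights and 0 by the t-test after Benjamini-Hochberg. The 0 calls under SD became 2 higher in WT and 3 higher in FG, of 48 members, with spike-in scaling. The background with that scaling was 19.2% higher for the WT comparison and 8.89% for the FG one. By the t-test the 0 calls under SD became 2 lower in WT and 1 higher in FG. The 2 calls of SD averaged over genotypes became 6 with spike-in scaling, 1 without the filter and 0 with the compared groups alone. SD against LD in space gave 2 (WT) with spike-in scaling, 6 (WT) and 7 (FG) with array weights and 0 in both with the compared groups alone, from 1 and 4. The daylength interaction of 1 became 0 in WT with the compared groups alone, and in FG 0 with those, with median scaling and with log2(signal + 32). That averaged over genotypes went from 2 to 1 with median scaling, without the filter and with the replicate block. The replicate block moved no other count: the deviations of same-numbered arrays had correlations of -0.278 to 0.502, with 14 of 28 pairs over 0.1, and the labels tie the numbers to nothing shared, so they were not taken as pairs.

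Leaving out each array in turn gave 0 to 3 higher and 2 to 7 lower in WT under LD, and 1 to 3 higher and 1 to 5 lower in FG under LD. It gave 0 to 2 lower in WT under SD (2 without either FG ground array under SD) and 0 to 2 lower in FG under SD (2 without the second of these). It gave 8 to 11 calls under LD and 0 to 3 under SD with genotypes averaged, 1 to 2 and 1 to 5 for SD against LD in space in WT and FG, 0 to 2 for FG against WT under SD on the ground (2 without the first FG array), and 0 to 2, 0 to 1 and 1 to 4 for the interaction in WT, FG and averaged.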

Other observations

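The title rule leaves out kinases of this class that carry other titles. Of the 57 listed receptors and co-receptors 10 are members, and BAK1, BRI1, FLS2 and CLV1 are not. Among the kinases left out are those titled with the abbreviation "LRR", of which there were 37 probe sets and 16 that passed the filter. Some of them, such as AT1G51810, AT1G51820, AT1G51860 and AT1G51890, lie in the same stretch of chromosome 1 as AT1G51790. In WT under LD 2 of the 16 were higher in space and 4 lower, against 10.9% and 5.79% of all probe sets, with a median of -0.17 against 0.09. In FG under LD and in both genotypes under SD none was called, with medians of -0.06, -0.23 (WT under SD) and -0.01 (FG under SD), against 0.07, 0.11 and 0.05.

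Of the members, 17 genes lie directly beside another member in the RefSeq gene order, in 6 runs of 2 to 4 genes. AT5G59670 and AT5G59680 form such a run. AT5G59670 was at least 1.17 and 1.82 higher in space in WT and FG under LD, the first not called (adjusted p = 0.0993).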
